A study of Arabidopsis thaliana with 21 samples.

Results

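The crosslink sites described here are single nucleotides in the 5′ UTRs of Arabidopsis thaliana transcripts at which the RNA-binding protein AtGRP7, fused to green fluorescent protein (GFP), was crosslinked to RNA in at least 4 of 5 libraries prepared at the time of its peak. A position was taken when it was listed for the same chromosome, base and strand in those libraries, was not named for an intron, and lay upstream of the start codon in the gene model for which it was named. This gave 2443 positions in 265 genes, out of 19109 positions of any region that met the same recurrence and 145822 distinct positions in all 21 libraries. For comparison, 6776 recurrent positions lay in coding exons and 9188 in 3′ UTRs. The positions were selected on their listing in these 5 libraries, so their recurrence and counts there are given as a description and were not tested.

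The libraries were made by individual nucleotide resolution crosslinking and immunoprecipitation (iCLIP), in which UV light joins a protein to the RNA it touches, the complex is precipitated, and reverse transcription tends to stop one base short of the crosslinked nucleotide. The fusion AtGRP7::AtGRP7-GFP was expressed in the grp7-1 mutant under the AtGRP7 promoter with the gene's own 5′ UTR, intron and 3′ UTR, so that reads from the AtGRP7 5′ UTR can come from the transgene. Controls were AtGRP7::GFP in Col-0 (GFP-only), which carries no fused AtGRP7, and AtGRP7::AtGRP7 R49Q-GFP in grp7-1, in which 1 residue needed for RNA binding is exchanged. Plants were entrained to 12 h light and 12 h dark, moved to continuous light (LL), irradiated at 254 nm with 500 mJ/cm2 and sampled as aerial tissue at an age of 18 days, at 36 h in LL (LL36, subjective dusk) or 24 h in LL (LL24, subjective dawn). There were 5 AtGRP7-GFP, 5 GFP-only and 2 AtGRP7-R49Q-GFP libraries at LL36, and 3 of each at LL24.

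AtGRP7 has a single RNA recognition motif and a glycine-rich tail, and its own transcript is a slave oscillation of the circadian clock that peaks in the evening. The 5′ UTR is the stretch that the small ribosomal subunit scans from the cap to the start codon, and proteins bound there can affect how, and how often, translation begins. UV crosslinking at this wavelength favours uridine, which bears on any base composition measured at crosslinked positions.

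The deposited lists hold only positions that passed the authors' significance threshold in that library, so a position that was not listed need not have had a count of 0. The AtGRP7-GFP libraries listed 27035 to 85639 positions at LL36 and 8092 to 25018 at LL24, the GFP-only libraries 21 to 292 and the AtGRP7-R49Q-GFP libraries 12 to 2710. LL36 replicates 3 and 4 were shallower than the other 3 of these libraries. Of the 1257 positions found in exactly 4 libraries, 560 were missing from LL36 replicate 3 and 445 from replicate 4, against 91, 59 and 102 from replicates 1, 2 and 5. Of the leaf genes used to check the tissue, 5 of 5 were listed in all 8 AtGRP7-GFP libraries. Of 5 root genes only PYK10 was listed, in 6 of the 8 libraries and with 8 recurrent positions. The paper states that iCLIP favours highly expressed transcripts, and expression was not matched between these genes. This check therefore does not show that root RNA was absent. In bulk tissue, fewer transcripts of a gene and less binding per transcript cannot be told apart, and no RNA level was used here.

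The sequences below show the strongest position of 11 genes with 10 bases on either side, as RNA from 5′ to 3′, with the crosslinked base in capitals. They were read from the RefSeq TAIR10.1 genome and were chosen to show the short pattern described with the base composition, which most of them hold, together with NIA2 and RBCS1A for their high counts and the last 3 for a start codon in view.
GRP7, chr2:9266358-9266378, minus strand: ucuacacaucUcacugcucac
CCR1, chr4:18274998-18275018, minus strand: cacauaagucUcucucuuaca
GRP-3, chr2:2026166-2026186, plus strand: aucacuuguuUcuccauaaua
NIA2, chr1:14158521-14158541, plus strand: auuuucguccUcagaucucau
CP29, chr3:19821474-19821494, minus strand: aaaccuuaucUcuucaccacc
AT4G30650, chr4:14954332-14954352, plus strand: uucaguguucUcuucuucucc
PSI-P, chr2:19243682-19243702, plus strand: uguuuuuguuUcugugagauu
RBCS1A, chr1:25049265-25049285, minus strand: accaaaccucAgucacacaaa
RBCS3B, chr5:15378304-15378324, minus strand: aaacaacaagAaguaguaaug
DRT112, chr1:7043269-7043289, minus strand: uaaaagaaucUucaucauggc
LHCB6, chr1:5447668-5447688, minus strand: auuagagaucUcauggcgaug
In 9 of these windows the crosslinked base was a uridine that followed a pyrimidine. The exceptions were the small subunit genes of Rubisco, RBCS1A and RBCS3B, where it was an adenosine. The start codon stands at the end of the RBCS3B window and within the DRT112 and LHCB6 windows.

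The positions lay close to the start codon. Their median distance to its first base, counted along the spliced transcript, was 40 nt (interquartile range 23 to 63 nt, n = 2443) in 5′ UTRs with a median length of 222 nt. Of the 2443 positions, 1585 (64.9%) were within 50 nt of the start codon, where 26.0% would fall if positions were spread evenly along the same 5′ UTRs. Within 30 nt the share was 37.3% against 15.6%, and within 100 nt it was 89.3% against 50.2%. When each 5′ UTR was divided into 3 equal parts, the part next to the start codon held 1968 positions and the part next to the 5′ end 157. With a single value per gene, the median distance was 42 nt and 61.9% of 265 genes had their median position within 50 nt. In 5′ UTRs of at least 200 nt the median distance was 47 nt, and 54.1% of 1448 positions were within 50 nt against 17.0% for an even spread. Weighted by crosslinks instead of positions, the share within 50 nt ranged from 50.8% to 62.9% over the LL36 libraries, with a mean of 59.1%. The even spread counts every annotated 5′ UTR base as transcribed, and no data on where transcripts begin were used. The part of annotated 5′ UTR length in the difference from an even spread was not tested.

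Density along the transcript rose toward the start codon and dipped at it. Over the 516 transcripts with a recurrent position in the 5′ UTR or coding exons, there were 11.9 positions per 1000 transcript nt from 100 to 91 nt upstream, 76.4 from 30 to 21 nt upstream and 34.0 in the last 10 nt of the 5′ UTR. The first 10 nt of the coding sequence held 35.5 per 1000 nt, and the density was highest at 100.2 from 30 to 39 nt into it. The authors called sites separately in each transcript region from sums over neighbouring bases, and the part of this in the dip was not tested.

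**Figure D1:**
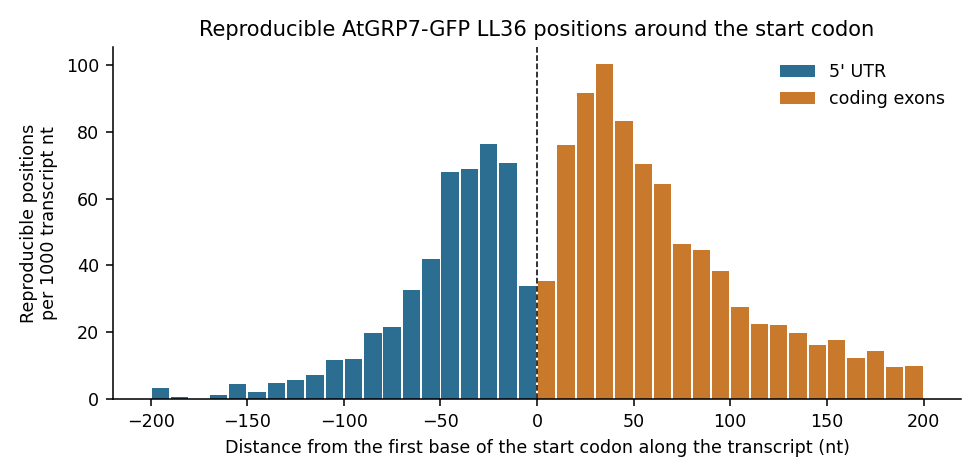
Recurrent AtGRP7-GFP LL36 positions per 1000 transcript nt (vertical axis) in 10-nt bins from the first base of the start codon (horizontal axis, nt along the spliced transcript), with 5′ UTR bins in blue and coding exon bins in orange. The density reached 76.4 in the bin from 30 to 21 nt upstream and fell to 34.0 in the last bin before the start codon.

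The same lean toward the start codon was present in sites that the selection did not use. Among LL24 sites in 5′ UTRs that were not members of the set, 59.0%, 58.6% and 65.1% were within 50 nt of the start codon in replicates 1, 2 and 3, where an even spread gave 23.5%, 25.1% and 23.1%. In genes with no recurrent LL36 position in the 5′ UTR, these shares were 48.8% of 201, 50.8% of 573 and 45.2% of 73 sites, against 24.5%, 26.3% and 21.3%. These shares carry no test, and the even spread rests on annotated 5′ UTR lengths here too. Over all 5′ UTR sites, the share within 50 nt was 60.5% ± 4.03 (SD, n = 5) at LL36 and 64.7% ± 4.18 (SD, n = 3) at LL24, with single libraries from 55.2% to 64.3% and from 62.1% to 69.5%. The groups overlapped, and LL36 minus LL24, -4.24 percentage points, was within the spread between libraries (two-sided exact permutation test, p = 0.286, adjusted p = 0.457 over 8 tests). The difference was -1.82 without LL24 replicate 3 and -5.54 without LL24 replicate 2.

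Positions came in short clusters, mostly a single cluster per gene. A gene held a median of 7 positions and at most 44, with 41 genes holding 1 and 34 holding at least 20. When positions of a gene within 10 nt of each other were merged, 288 clusters remained, 242 genes had only 1, and the median cluster spanned 12.5 nt. The longest run of adjacent bases was 29, in RBCS1A, which encodes a small subunit of Rubisco, and covered every base from 1 to 29 nt upstream of the start codon in a 5′ UTR of 418 nt. The 26 positions of GRP-3, encoding a glycine-rich cell wall protein, formed a single run from 26 to 51 nt upstream. Overlapping neighbours of this kind are not independent sites. The authors scored each base on crosslinks summed over neighbouring bases of the same region, and the part of this in the clusters and runs was not tested.

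The 10 genes with the most positions held 336 of the 2443 (13.8%). GS2, the chloroplast glutamine synthetase, had 44 positions from 18 to 106 nt upstream of the start codon. RCA, encoding Rubisco activase, had 43, from 20 to 82 nt upstream. They were followed by the dehydrin gene ERD14 (36), the transketolase gene AT3G60750 (34), LHCA4 (32), ELP (32), RBCS1A (29), PSI-P (29), LHCA1 (29) and PSAF (28). As background, ERD14 and ELP, an extensin-like protein gene, do not encode chloroplast proteins, whereas the other genes named here do. The share of chloroplast proteins over all genes was not computed.

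**Figure D2:**
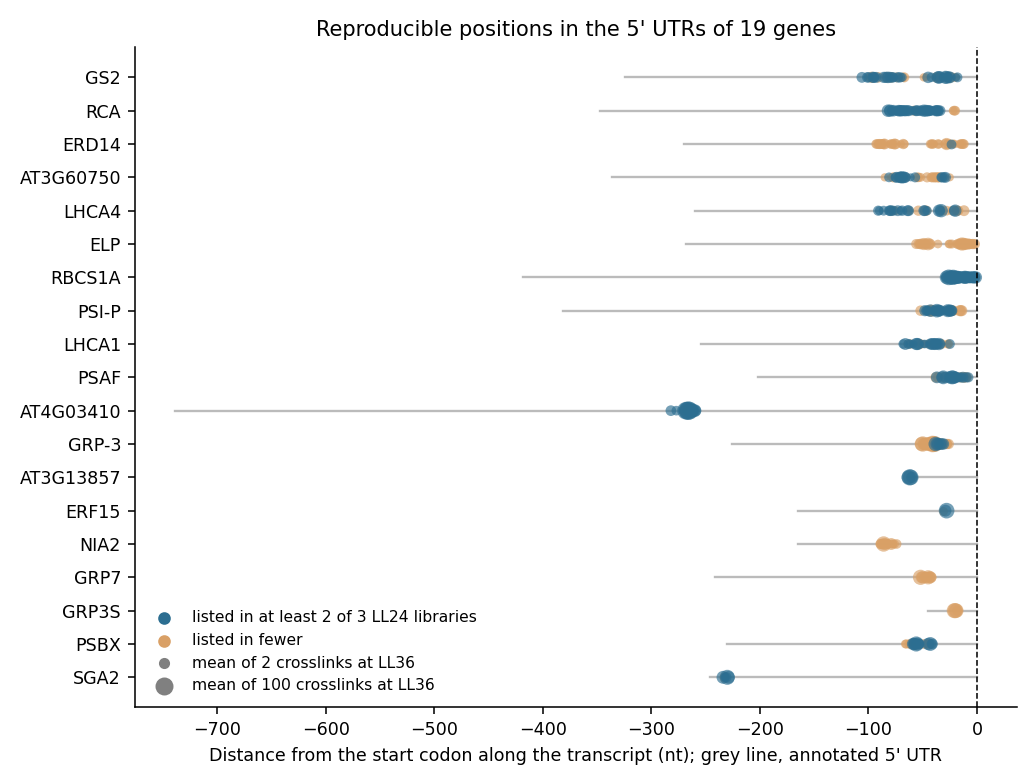
Each point is a recurrent LL36 position, placed by its distance from the start codon (horizontal axis, nt) for the 19 genes with the most positions or the highest mean count, with point size rising with the mean crosslinks at LL36 and the grey line giving the annotated 5′ UTR. Blue points were listed in at least 2 of 3 LL24 libraries and orange points in fewer, so that RCA and RBCS1A are mostly blue while ERD14, ELP, NIA2, GRP7 and GRP3S are mostly or wholly orange.

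Counts at single positions were low. The mean over the libraries that listed a position had a median of 3.4 crosslinks (range 1 to 527.6), against 4 in coding exons and 4.5 in 3′ UTRs, and 311 positions had a mean of at least 10. Positions found in exactly 4 libraries had a median mean count of 2.75, those in all 5 had 4.8, and the 1958 positions just outside the rule, found in exactly 3, had 2.

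The highest count at a messenger RNA with no other annotated gene at the site was in GRP-3. Its top position, 41 nt upstream of the start codon, had 166, 192, 111, 86 and 156 crosslinks in LL36 replicates 1 to 5. At LL24 it was listed with 50 crosslinks in replicate 2 and was not listed in the other 2 libraries. Across the whole GRP-3 transcript there were 1660 to 5386 crosslinks at LL36 and 355, 829 and 210 at LL24, so the transcript itself was listed in every LL24 library. GRP3S, a shorter relative in the same family, had 59, 84, 34, 46 and 63 crosslinks at its top position and none of its 4 positions listed at LL24, although 348, 666 and 235 crosslinks were listed elsewhere in the gene. Only uniquely mapped reads were kept by the authors, and bases that are identical in these relatives could then not be counted in either.

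AtGRP7 itself, GRP7 in the annotation, carried 10 positions from 42 to 52 nt upstream of its start codon. The top position had 52, 62, 60 and 66 crosslinks in LL36 replicates 1, 2, 4 and 5 and was not listed in replicate 3, which listed 1272 crosslinks elsewhere in the gene. No GRP7 position in the set was listed at LL24, where the entire gene had 0, 3 and 0 listed crosslinks against 1272 to 4375 at LL36. CCR1, which encodes the paralog AtGRP8, had 6 positions from 36 to 50 nt upstream with 9, 6, 2 and 7 crosslinks at the top one in replicates 1, 2, 4 and 5. This top position too was missing from LL36 replicate 3, which listed 45 crosslinks at other positions of the gene. No crosslink was listed anywhere in CCR1 at LL24. In both genes the strongest crosslinked base was a uridine within the letters ucUc, as printed above.

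The other genes of the clock and its output list that had a recurrent position were CCL, AT2G33830 and PCL1. CCL, a clock-regulated CCR-like gene, had 9 positions from 35 to 45 nt upstream, with 8, 8, 5 and 7 crosslinks in LL36 replicates 1, 2, 3 and 5 at the top one. AT2G33830, a dormancy-associated gene, had 5, with 4, 8, 7 and 8 crosslinks in replicates 1, 2, 4 and 5. None of the positions of these 2 genes was listed at LL24. PCL1, a component of the evening complex that is named here after its values were seen, had 7 positions from 150 to 160 nt upstream, of which 3 were listed in at least 2 LL24 libraries. Of the 6 genes of that list with a recurrent position anywhere in the transcript, 5 held one in the 5′ UTR, where 32.2% of all 822 genes with any recurrent position did. In all, 3 of the 37 positions in these 5 genes were listed in at least 2 LL24 libraries. The list was drawn up with earlier results of these data known. It includes GRP7, CCR1, CCL and the dormancy-associated gene, which the paper discusses as targets. For CCL and the dormancy-associated gene, the paper already shows crosslink sites upstream of the coding exons. The 5 of 6 genes were therefore partly fixed by the choice of the list, and no enrichment over all genes can be read from them.

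Genes of the photosystems and their light-harvesting antennae, whose proteins capture light in the thylakoid membrane, held the most positions of any gene list. Of 46 such genes with any recurrent position, 25 held one in the 5′ UTR (54.3%, against 32.2% of all 822), with 424 positions in all at a median of 32 nt from the start codon. In at least 2 of 3 LL24 libraries, 229 of the 424 (54.0%) were listed, against 36.2% of all 2443 positions. PSBX, a small photosystem II subunit, had 55, 37, 31, 75 and 85 crosslinks at its top position in LL36 replicates 1 to 5 and 28, 33 and 7 at LL24. LHCB6 had 12 positions, all between 1 and 14 nt upstream, and its top base lay 2 nt before the start codon with 15, 27, 6, 10 and 6 crosslinks at LL36 and 6, 11 and 10 at LL24. These LL24 values fell within the LL36 range for LHCB6, and 2 of 3 fell below it for PSBX. They are raw counts, not scaled for depth. The AtGRP7-GFP libraries listed 109583 to 401493 crosslinks in all at LL36 and 27252 to 98067 at LL24. Raw counts at the 2 times therefore do not compare binding. PSBQA, a subunit of the oxygen-evolving complex, differed from these: its top position had 27, 20, 7, 14 and 11 crosslinks at LL36, and none of its 14 positions was listed at LL24, where 72, 304 and 22 crosslinks were listed elsewhere in the gene.

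The carbon fixation list, matched by words in the product names, had the highest share of positions listed again at LL24 among the gene groups. It took GAPC2 (22 positions) and FBA8 (7), which encode cytosolic enzymes of glycolysis, and missed PRK, SBPASE and the transketolase gene AT3G60750. Of 17 genes with any recurrent position, 12 held one in the 5′ UTR (70.6% against 32.2%), and 158 of their 226 positions (69.9%) were listed in at least 2 of 3 LL24 libraries, against 36.2% of all 2443. Their median count at LL36 was 4.2 crosslinks, against 3.4 for all positions, and the part of this in the share was not tested. At the top RBCS1A position, 26 nt upstream, there were 154, 80, 57, 20 and 90 crosslinks at LL36 and 24, 34 and 15 at LL24. RBCS3B, another small subunit gene, had 18 adjacent positions 1 to 18 nt upstream, with 61, 38, 18, 10 and 24 crosslinks at LL36 and 15, 23 and 17 at LL24. In both genes the LL24 counts, not scaled for the lower depth at LL24, were inside or just under the LL36 range. The gene for phosphoribulokinase, PRK, which produces the CO2 acceptor of the cycle, had 15 positions from 83 to 109 nt upstream and no recurrent position in its coding exons or 3′ UTR. Its top position had 32, 44, 16, 10 and 24 crosslinks at LL36 and 9, 8 and 9 at LL24. DRT112, a plastocyanin gene that belongs with photosynthetic electron transport, had 15 of 22 positions listed in all 3 LL24 libraries, with 58, 56, 13, 28 and 38 crosslinks at LL36 and 10, 17 and 15 at LL24 at the top one.

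Ribosomal protein genes contributed many genes with few positions each. Of 107 genes matched by name, 42 held recurrent 5′ UTR positions (39.3%, against 32.2% of all 822 genes), 240 in all, with 77.1% within 50 nt of the start codon. The match on product names also took genes for plastid ribosomal proteins, RPL15, SSR16 and PSRP3/1 among them, and LOS1, which encodes an elongation factor. The share of plastid ribosomal proteins in the list was not computed. In at least 2 LL24 libraries, 40 of the 240 positions (16.7%) were listed, against 36.2% of all 2443, with a median count at LL36 of 3.2 crosslinks against 3.4. AT2G25210, which encodes ribosomal protein L39 and had recurrent positions only in its 5′ UTR, held 16 positions, with 47, 37, 17, 18 and 31 crosslinks at LL36 and 16, 7 and 8 at LL24 at the top one.

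RNA-binding protein genes other than the AtGRP7 pair included CP29, a chloroplast RNA-binding protein, with 12 positions from 45 to 66 nt upstream in a 5′ UTR of 96 nt. Its top position had 15, 17, 10, 13 and 16 crosslinks at LL36, and no position was listed at LL24. The group as matched by name held 54 positions in 6 genes, GRP7, CCR1, CP29, RUXF, AT4G25740 and AT5G52650. AT5G52650 alone held 24 of them. The match on words in the product name does not show that each gene belongs with RNA-binding proteins rather than another list. In at least 2 LL24 libraries, 0 of the 54 were listed, against 36.2% of all. The match missed PAB2, which encodes a poly(A)-binding protein and had 13 positions. Its top position had 17, 2, 2, 7 and 6 crosslinks at LL36 and 3, 3 and 1 at LL24, so the 0 holds only for the matched genes. In the cold and chaperone list, 8 of 25 genes had recurrent 5′ UTR positions (32.0%, near the 32.2% of all genes). Of 77 positions, 6 (7.79%, against 36.2% of all) were listed in at least 2 LL24 libraries, 5 of them in SGA2 and 1 in ERD14. GRP7 and CCR1, with 10 and 6 positions and none listed at LL24, count in this list, the RNA-binding list and the clock list. The low shares of these lists are therefore not separate results. AT4G30650, which the words of the cold list did not match, encodes a small hydrophobic protein of a family named for low temperature and salt. It had 19 positions, with 19, 27, 8, 13 and 18 crosslinks at the top one and none at LL24. COR413-PM1, a cold-regulated membrane protein gene, had 7 positions, 24, 23, 6 and 11 crosslinks in replicates 1, 2, 3 and 5 and none at LL24.

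Nitrogen assimilation was represented by GS2 and by NIA2, the main leaf nitrate reductase. NIA2 had 13 positions from 74 to 89 nt upstream, with 78, 96, 51, 54 and 53 crosslinks at the top one at LL36. At LL24 that position was listed with 22 crosslinks in replicate 3 only, while the gene as a whole had 93, 279 and 61 listed crosslinks. LBD37, a transcription factor known for its response to nitrate, had 18 positions and, like PRK and AT2G25210, no recurrent position outside the 5′ UTR. Of the other lists, redox genes held positions in 7 of 23 genes (30.4%), translation factors in 4 of 11 (36.4%) and aquaporins in 2 of 7 (28.6%), which are shares near the 32.2% of all genes. FER1, a ferritin that stores iron, had 18 positions with 7, 7, 2, 7 and 14 crosslinks at the top one. Of these groups, 24 of 71 redox positions, 12 of 31 translation factor positions and 0 of 28 aquaporin positions were listed in at least 2 LL24 libraries, which was 33.8%, 38.7% and 0%, against 36.2% of all.

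**Figure D3:**
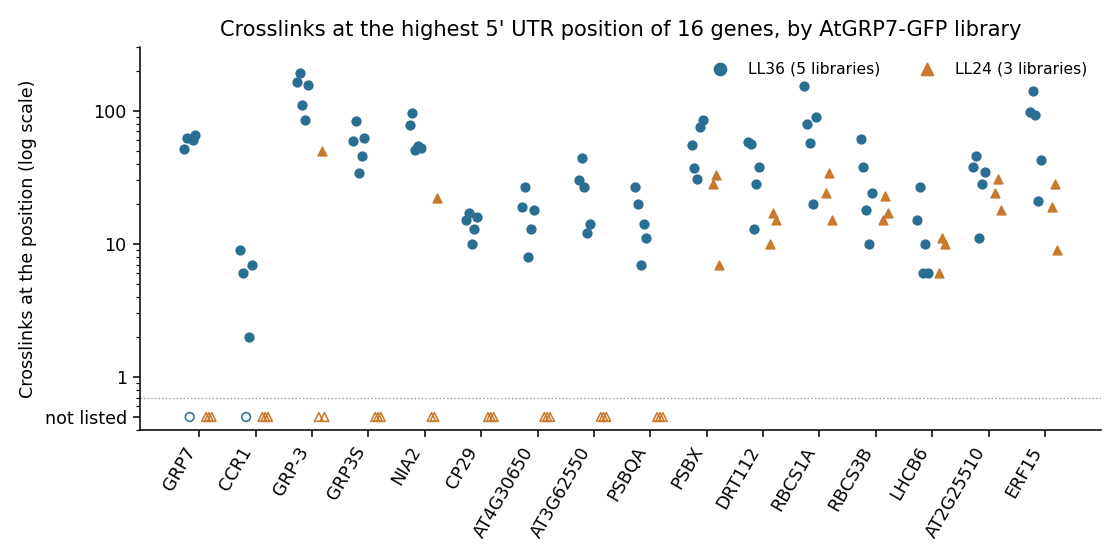
Crosslinks (vertical axis, log scale) at the highest recurrent 5′ UTR position of 16 genes (horizontal axis) in each of 5 LL36 libraries (blue circles) and 3 LL24 libraries (orange triangles), with libraries that did not list the position drawn as open symbols under the dotted line. GRP7, CCR1, GRP3S, CP29, AT4G30650, AT3G62550 and PSBQA had no LL24 library above the line, whereas the 7 genes from PSBX to ERF15 had all 3.

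The recurrence of the positions at LL24, in libraries that took no part in choosing them, addressed whether the same bases are bound at both times of day. LL24 replicates 1, 2 and 3 listed 882, 1259 and 660 of the 2443 positions (36.1%, 51.5% and 27.0%). In at least 2 of the 3 libraries, 885 (36.2%) were listed, where 39.5% of all 18604 recurrent positions not named for an intron were, and in at least 1 library 1476 (60.4%) were, where 65.5% of all were. In all 3 libraries, 440 were listed. The share listed in a library was 38.2% ± 12.4 (SD, n = 3) for 5′ UTR positions, 39.3% ± 14.5 for coding exon positions and 44.0% ± 16.6 for 3′ UTR positions. Within libraries, the share of 5′ UTR positions minus that of 3′ UTR positions was -5.73 percentage points (SD 4.33) and was negative in 3 of 3 libraries. Permuting the signs over the 3 libraries gave an exact two-sided p = 0.25, and no lower value is possible with this number. The difference from coding exon positions, -1.08 percentage points (SD 2.52), was within the spread between libraries (same test, exact p = 0.5). Without LL24 replicate 3 these were -8.03 and -2.54, and without LL24 replicate 2 they were -3.74 and -0.288. After adjustment over the 8 tests these were 0.457 and 0.571.

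Recurrence rose with the count at LL36. Of 5′ UTR positions with a mean of under 2 crosslinks at LL36, 12.2% were listed in at least 2 LL24 libraries, of those with 2 to under 5 it was 29.8%, with 5 to under 10 it was 53.7%, with 10 to under 20 it was 65.8%, and with 20 or more it was 73.5%. In coding exons and 3′ UTRs the shares were 13.8% and 14.2% under 2 crosslinks and 26.5% and 28.5% at 2 to under 5. At 5 to under 10 they were 47.7% and 51.3%, and at 10 to under 20 they were 64.2% and 66.4%. At 20 or more, a class with 83 5′ UTR positions, they were 82.4% and 82.0%. The 5′ UTR share was thus the highest of the 3 regions from 2 to under 10 crosslinks. It was the lowest under 2 and at 20 or more. The LL24 libraries were shallower, and a list limited by a significance threshold would lose weak positions first. A position missing at LL24 may therefore have been not detectable at this depth.

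**Figure D4:**
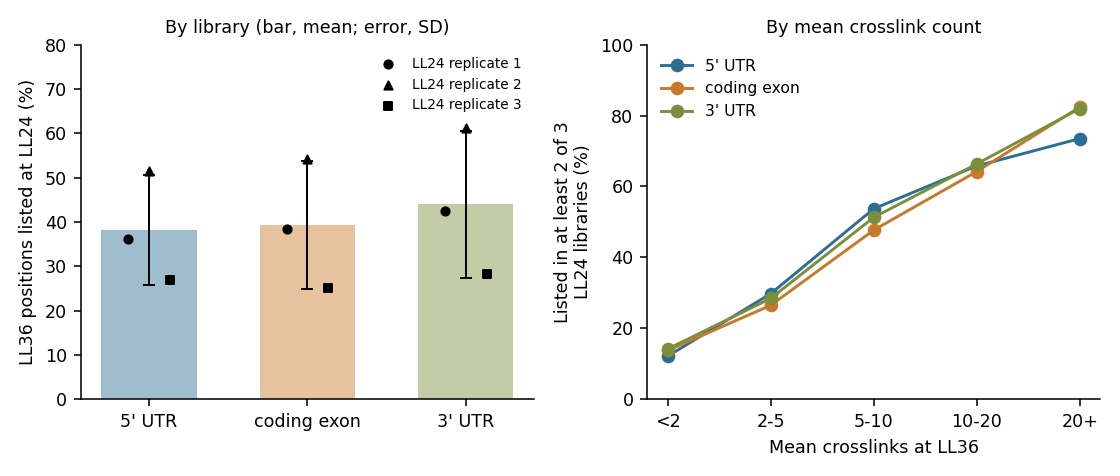
Left, percent of recurrent LL36 positions of each region (horizontal axis) listed in each LL24 library (symbols), with the bar at the mean and the error bar 1 SD over 3 libraries. Right, percent listed in at least 2 of 3 LL24 libraries (vertical axis) by the mean crosslinks at LL36 (horizontal axis, classes), where the 5′ UTR ran from 12.2% to 73.5%.

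By gene, 160 of the 265 had at least 1 position listed at LL24, 107 had one in at least 2 libraries and 73 in all 3. RCA had 22 positions listed in all 3 LL24 libraries and RBCS1A had 21, followed by DRT112 and AT2G25510 with 15 each and RBCS3B with 14. The other 105 genes, with 446 positions, had none listed. In 61 of these 105 the gene was listed somewhere along the transcript in at least 1 LL24 library, in 18 of them in all 3, and 44 were not listed at all. Among them AT3G62550, encoding an adenine nucleotide alpha hydrolase-like protein, and AT4G30650 had the most positions, 19 each. The top AT3G62550 position had 30, 44, 27, 12 and 14 crosslinks at LL36, and no crosslink was listed anywhere in the gene at LL24. The cytosolic malate dehydrogenase gene c-NAD-MDH1 had 14 positions, none at LL24, with 22, 65 and 18 crosslinks listed elsewhere in the gene.

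The share of all placed sites that lay in 5′ UTRs did not differ between the times beyond the spread between libraries. It was 11.2%, 11.4%, 12.4%, 13.4% and 14.2% in LL36 replicates 1 to 5 and 12.5%, 11.2% and 12.5% in LL24 replicates 1 to 3. The LL24 values lay inside the LL36 range or at its lower edge. The difference was 0.46 percentage points (two-sided exact permutation test, p = 0.643, adjusted p = 0.643). It was 0.033 without LL36 replicate 5, 0.040 without LL24 replicate 2, 0.24 without LL36 replicate 4 and 0.77 without LL36 replicate 1.

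Some 5′ UTRs were listed recurrently at LL24 without a recurrent position at LL36. In at least 2 LL24 libraries there were 1313 positions in 131 genes, of which 883 (67.3%) were members of the set. This is 2 fewer than the 885 members listed at LL24, since 2 bases of AT2G16018 were listed there mainly for the overlapping gene AT2G16030. The 19 genes without any member held 100 of these positions. They were led by RHM1, a rhamnose synthase gene, with 17, CAT2, the main leaf catalase, with 11, LHCB2.3 with 10, ATPD, a chloroplast ATP synthase subunit, with 9, and CHIL, a chalcone isomerase-like gene of flavonoid synthesis, with 9. The positions of RHM1, CHIL, F3H, C4H, AT1G06000 and AT2G29660 were listed in no LL36 library, and CHIL, F3H and C4H act in phenylpropanoid and flavonoid synthesis. CAT2, LHCB2.3 and ATPD had positions listed in at most 2, 3 and 3 LL36 libraries, where 4 were asked for.

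Uridine was the leading base at the positions. It was the crosslinked base at 1399 of 2443 positions (57.3%), against 36.1% of the flanking 10 bases on either side and 30.7% of all bases in the same 5′ UTRs. Adenosine took 20.8%, cytidine 16.3% and guanosine 5.65%, against 32.7%, 21.5% and 15.1% in the same 5′ UTRs. The uridine share was 55.5% in coding exons and 60.2% in 3′ UTRs. Immediately before the position, uridine stood at 45.6% and cytidine at 32.0% of positions, and immediately after it cytidine stood at 34.2%. In LL24 5′ UTR sites that were not members of the set, uridine was at 44.0% ± 3.53 (SD, n = 3) of crosslinked bases and 35.9% ± 1.28 of flanking bases. It was higher at the crosslinked base in 3 of 3 libraries, by 8.06 percentage points (SD 2.39), and the same exact permutation of signs gave p = 0.25, again the lowest possible (adjusted p = 0.457).

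**Figure D5:**
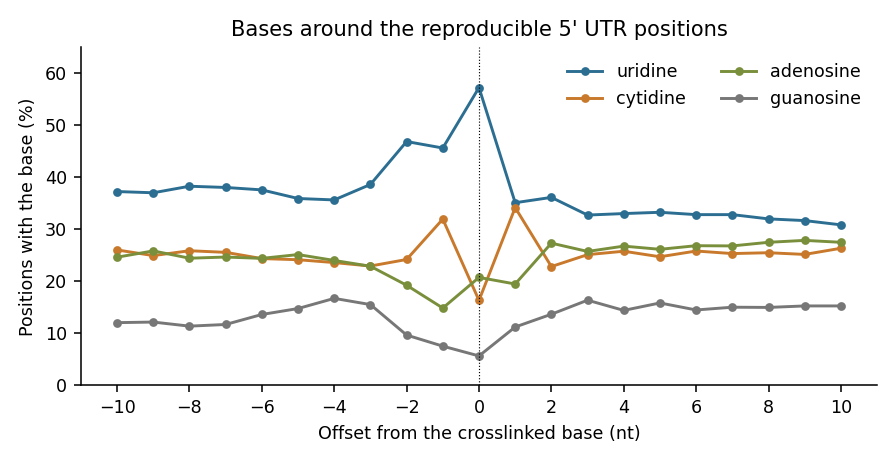
Percent of the 2443 positions with each base (vertical axis) at offsets of up to 10 nt from the crosslinked base (horizontal axis, 5′ to the left). Uridine peaked at 57.3% at the crosslinked base, and cytidine was highest at the bases just before and just after it.

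The pattern was sharper when 1 position per gene was taken, the one with the highest mean count. Of these 265 bases, 239 (90.2%) were uridine, the base before was a pyrimidine in 93.2%, the base 2 before was uridine in 68.7%, and the base after was cytidine in 173 (65.3%). Over the 4 letters from 2 before to 1 after the crosslinked base, UCUC stood in 55 genes and UUUC in 53, which were 20.8% and 20.0% of the genes against 1.47% and 1.09% of all stretches of 4 bases in the same 5′ UTRs. UCUU followed in 24 genes and CUUC in 20. These letters can be read in the GRP7, CCR1, GRP-3, CP29, AT4G30650, PSI-P, LHCB6 and DRT112 windows above. The top positions of coding exons and 3′ UTRs had uridine at 93.4% of 377 and 90.6% of 520 genes, and UCUC or UUUC at 37.4% and 29.2%, against 40.8% in the 5′ UTR. In the 19 genes that entered only at LL24, the top position was uridine in 17, was followed by cytidine in 15 and had UCUC or UUUC in 6. Choosing the highest count favours bases that crosslink well, and the part of this in the pattern was not tested.

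Longer pyrimidine stretches surrounded the positions more often than the rest of the same 5′ UTRs. Of 2443 positions, 805 (33.0%) lay inside a run of at least 6 pyrimidines, against 14.6% of the bases of the same 5′ UTRs, and 1484 (60.7%) had such a run within 10 nt. Such a run was present somewhere in the 5′ UTR of 253 of the 265 genes (95.5%) and of 84.6% of all coding genes with a 5′ UTR. In windows of 21 bases on the transcript strand, TTCT was present at 40.2% of positions, against 19.2% of all windows in the same 5′ UTRs and 21.6% in those of all genes. For CTTC the shares were 31.4%, 15.7% and 15.1%, for TCTT, which can overlap both, 39.1%, 20.8% and 21.3%, and for CTCTC 13.7%, 6.88% and 6.82%. TTCTG was present at 4.38% of positions, against 1.91% and 2.71%, and the purine-rich GAAGAA at 2.46% against 1.95% and 2.20%. Runs of 5 uridines, TTTTT, stood at 7.94% of positions against 5.52% and 7.70%, and AAAAA was less frequent, at 3.85% against 10.0% and 8.78%. Neighbouring windows share bases, and these shares are a description.

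Upstream open reading frames, short reading frames that can engage ribosomes before the main start codon, held a smaller share of the positions than of the bases. An upstream AUG was present in 166 of the 265 5′ UTRs (62.6%) and in 58.4% of all 22959 genes with an annotated 5′ UTR. Of the positions, 254 (10.4%) lay inside an upstream reading frame, which covered 28.0% of the bases of the same 5′ UTRs. Only frames that ended inside the 5′ UTR were counted. The shares were not matched for distance to the start codon. The parts of closeness to it and of annotated 5′ UTR length in the difference were not tested. The 5′ UTRs with a position had a median length of 202 nt, against 172 nt over all coding genes with a 5′ UTR. A 5′ UTR intron was annotated in 42 of the 265 genes (15.8%), against 17.0% of all genes. In these 42, 336 of 356 positions (94.4%) lay in an exon before the last 5′ UTR exon, which was short, with a median of 17.5 nt of 5′ UTR, so that the earlier exons held 78.0% of the bases.

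A minority of the positions lay over another annotated RNA. At 53 positions in 6 genes, a different gene was annotated on the same strand, and these include the strongest site of the set. AT4G03410, a gene for a peroxisomal membrane protein family, had 14 positions from 259 to 282 nt upstream that overlapped the tRNA gene AT4G03405, with 774, 702, 640, 178 and 344 crosslinks at the top one at LL36 and 269, 107 and 23 at LL24. AT4G23420 had 23 positions over the snRNA gene AT4G07120, AT2G35750 and AT5G65860 had 5 each over the snoRNA genes AT2G08770 and AT5G09495, SAG21 had 3 over the miRNA gene AT4G04125, and AT2G16018 had 3 over the protein-coding gene AT2G16030. Reads at these bases cannot be assigned to either RNA. Leaving them out, 2390 positions remained with a median distance of 39 nt to the start codon.

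The 5′ UTR was often not the only region. Of the 265 genes, 168 also held recurrent 3′ UTR positions and 126 held recurrent coding positions, while 79 held recurrent positions in the 5′ UTR only. The largest of these 79 were AT4G23420, which overlaps the snRNA gene, with 23 positions, LBD37 with 18, AT2G25210 with 16, and PRK and AT5G21940 with 15 each. ERF15, a gene for an ethylene response factor, had only 3 positions from 28 to 31 nt upstream and none elsewhere, but 98, 142, 93, 21 and 43 crosslinks at the top one at LL36 and 19, 28 and 9 at LL24. SGA2, encoding a histone chaperone, likewise had 6 positions, all in the 5′ UTR and close to its annotated 5′ end, 229 to 234 nt upstream of the start codon, with 61, 90, 58, 20 and 37 crosslinks at LL36. AT3G13857, an uncharacterized protein gene, had 4 positions from 60 to 63 nt upstream in a 5′ UTR annotated as 64 nt long, with 136, 132, 64, 77 and 169 crosslinks at LL36 and 54, 41 and 44 at LL24. In other annotated models of the same gene, 142 positions were not 5′ UTR but coding exon (70) or intron (72).

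The control libraries listed few of the positions. Of the 2443, 200 (8.19%) in 36 genes were listed in any of the 13 control libraries, where 11.4% of all recurrent positions were. GFP-only libraries listed 23 of them in 7 genes and AtGRP7-R49Q-GFP libraries 188 in 35 genes. At LL24, replicates 1, 2 and 3 listed 10, 11 and 2 of the positions in GFP-only and 17, 168 and 9 in AtGRP7-R49Q-GFP, against 882, 1259 and 660 in AtGRP7-GFP, so that the groups did not overlap. On the log2(positions + 1) scale the difference was 6.94 from GFP-only and 4.85 from AtGRP7-R49Q-GFP, and in both the two-sided exact permutation test gave p = 0.1, the smallest that 3 against 3 libraries allow (adjusted p = 0.4). Control libraries were far shallower, and the positions had been chosen in AtGRP7-GFP libraries. The GFP-only LL24 libraries listed only 27 to 292 positions in all, so they could not have overlapped with AtGRP7-GFP on this count. AtGRP7-R49Q-GFP LL24 replicates 1, 2 and 3 listed 421, 2710 and 76. These 2 tests on counts therefore cannot separate binding from depth and selection. As a share of the positions a library listed, the set took 6.77%, 5.03% and 8.16% in the AtGRP7-GFP LL24 libraries and 4.81%, 3.77% and 7.41% in the GFP-only ones, which overlapped (difference 1.33 percentage points, exact permutation p = 0.4, adjusted p = 0.533). Leaving out a library moved this difference between 0.546 (without GFP-only LL24 replicate 2) and 2.37 (without GFP-only LL24 replicate 3). In the AtGRP7-R49Q-GFP LL24 libraries the share was 4.04%, 6.20% and 11.8%, with a mean of 7.36% against 6.65% in AtGRP7-GFP, and these groups also overlapped.

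The positions that recurred in the controls came from few genes. RBCS1A had 19 of its 29 positions listed in a control library, RCA 17 of 43, AT4G03410 10 of 14 and AT2G25510 10 of 27. In GFP-only LL36, 3 positions were listed in at least 4 of 5 libraries, and 4 positions were listed in at least 2 of the 3 GFP-only LL24 libraries. At the top position of AT4G03410, over the tRNA gene, 9 of 13 control libraries listed the base. GFP-only 5′ UTR sites lay at a median of 262.5 to 270 nt from the start codon in 7 of 8 libraries, at the distance of the AT4G03410 positions, and at 69 nt in LL24 replicate 2. In AtGRP7-R49Q-GFP LL24 replicates 1, 2 and 3 the median distance was 22, 58 and 41.5 nt, and 60.9%, 44.5% and 78.6% of 23, 245 and 14 5′ UTR sites were within 50 nt, against 12.8%, 20.1% and 37.3% for an even spread. The AtGRP7-GFP libraries had 55.2% to 69.5%, and the difference between these genotypes was not tested.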

How the data were processed

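The deposited files list crosslink positions with a count of crosslinks per position and no further scaling. By the paper's methods, the authors trimmed reads with cutadapt 1.9.1, removed PCR duplicates by random barcode and mapped to TAIR10 with STAR 2.5.2a, keeping unique hits. They took the base before each read start and kept positions significant against a randomized background. This was done separately for introns, exons and both UTRs of the representative gene model. The lists exceed the paper's numbers of significant sites, so the threshold applied to them is uncertain. Here, the 315156 entries were placed on the named models in the RefSeq TAIR10.1 annotation, whose UTRs may differ from those the authors used. Of these, 99.1% fell in a 5′ UTR, coding exon, 3′ UTR or named intron, and 1066 were named for a model not in that annotation. Positions and gene lists were chosen with earlier results of these data known. Genes named in the text were those with the most positions, the highest mean count, positions only in the 5′ UTR, the most or no positions at LL24, the most in controls, positions closest to the start codon, and those the paper discusses. Genes outside these rules, such as those listed at LL24 only, those over another RNA and PCL1, were named after their values were seen. Libraries are separate biological replicates per the study's methods, and p-values measure only the spread between these libraries. Exact permutation tests over libraries were two-sided and adjusted over 8 tests by Benjamini-Hochberg (Python 3.11.15, numpy 2.4.6, pandas 2.3.3), after checks on simulated data. Alternatives were other numbers of libraries, a tolerance of 1 nt, at least 2 crosslinks, merging, other gene models, and leaving out each library.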

Additional observations from a re-analysis of the deposited data

Results flagged for a closer look

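In GFP-only LL36 replicate 3, 6.25% of the 5′ UTR sites lay within 50 nt of the start codon, far from the other GFP-only LL36 libraries, which were all at 0%. That library listed 78 positions in all, so this share rests on 1 site. At the top position of LHCB5, a light-harvesting protein of photosystem II, AtGRP7-GFP LL36 replicate 3 had 14 crosslinks and stood apart from the 34, 40, 33 and 37 of the other libraries. These were the 2 found in 60 such comparisons, of which chance marks about 1 in 20.

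Some recurrent positions near 5′ ends fell outside the rule. In at least 4 LL36 libraries, 14 positions named for an intron by the authors lay in the annotated 5′ UTR, 6 in RBCS1B, 5 in EIF4A1 and 3 in ATG8C, and none of them was listed in a control library. A further 47 recurrent positions lay upstream of the first base of the named model. They were in 3 genes, with 21 near AT1G64130, where 20 were also listed in a control library, 18 near AT2G24945, where 3 were, and 8 near PUX3, where 2 were.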

How the results depend on the processing

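The number of recurrent 5′ UTR positions moved with the rule, from 2443 to 4401 with at least 3 of 5 libraries, 1186 with all 5 (168 genes), 4618 with a tolerance of 1 nt, 1353 with at least 2 crosslinks, and 288 with positions merged within 10 nt. Without each LL36 library in turn, asking for 3 of the other 4, it ranged from 2709 to 3796, and was 3796 without replicate 3 and 3757 without replicate 4. The share within 50 nt of the start codon was 64.9%, 60.3% with distance along the genome, and 63.2% to 66.1% without each library. The share listed in at least 2 LL24 libraries was 36.2%, 50.4% within 1 nt, 60.4% in at least 1 library, 18.0% in all 3, 49.6% for positions in all 5 LL36 libraries and 24.7% for those in at least 3. The share of a library's positions that were members, AtGRP7-GFP minus GFP-only at LL24, changed sign within 1 nt (-3.26 percentage points) and with at least 2 crosslinks (-0.039), and the cause was not tested. With the replicate number as a block, the 5′ UTR share at LL36 minus LL24 turned from 0.46 to -0.40 percentage points (exact paired permutation p = 0.75). Same-numbered LL36 and LL24 libraries did not deviate together (correlations of 0.009, 0.028 and -0.020), so the numbers were not taken to pair them, and the block changed no other direction or call. No test passed 0.05 under any alternative. The 6 tests on 3 libraries or on 3 against 3 could not reach it, while the 2 of 5 against 3 could (smallest exact p 0.0357). An absence at LL24 is limited by depth, since those libraries listed at most 25018 positions.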
